A study of Mus musculus with 12 samples.

Results

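Sox21, Sox1, Sox3, Sox4, Sox11, Sox12 and Sox13 are 7 SOX transcription factor genes, most of them best known for roles in the developing nervous system, and their transcripts were followed on 12 bead arrays of mouse embryonic stem (ES) cells after knockdown of a histone demethylase. The members are 7 of 17658 genes that the array annotation ties to a probe of their own, and they hold 13 of its 46133 probes. Sox21 was chosen by its measured values, since it had moved in opposite directions in the knockdowns of Jmjd1a and Jmjd2c, and its changes are therefore given as a description with no test. The other 6 genes were selected by symbol around it with earlier results of these data known.

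The cells were E14 mouse ES cells, 1 line, grown feeder-free on gelatin with LIF, and each culture was transfected with 2 µg of a short hairpin RNA plasmid (pSUPER puro). The groups were 3 cultures with a hairpin against Jmjd1a (current symbol Kdm3a), 3 with a hairpin against Jmjd2c (Kdm4c) and 6 with a hairpin against firefly luciferase (Luc), called biological replicates in the series text. Puromycin at 1 µg/ml for 4 days is stated for the Luc cultures, and the text for the knockdown cultures breaks off before it. Both targets are demethylases of lysine 9 of histone H3. Each value is a linear probe intensity. For log2 changes, given ± SE, every value under 32 was set to 32 (the floor), and the 15853 probes above 32 on at least 3 arrays were tested with limma. A probe is called where its adjusted p is under 0.05.

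Luc replicates 1 to 3 and Luc replicates 4 to 6 stood apart, in a division that the labels do not name. Log2 values correlated at r = 0.995 to 0.997 within a group of 3, against 0.962 to 0.964 between the Luc sets, so each knockdown is set here against 3 Luc arrays, Jmjd1a against replicates 1 to 3 and Jmjd2c against replicates 4 to 6. The labels do not state this pairing. It was taken over from earlier results of these data, and each knockdown is set against the Luc arrays that it resembles more. Jmjd1a correlated at 0.986 to 0.988 with Luc replicates 1 to 3 and at 0.950 to 0.952 with replicates 4 to 6. Jmjd2c correlated at 0.980 to 0.983 with Luc replicates 4 to 6 and at 0.974 to 0.976 with replicates 1 to 3. All p-values below are conditional on this choice, and member values against all 6 Luc arrays follow those of the single genes. Mean intensity per array was 235.9 to 244.6, and 13591 to 14996 probes per array lay above 32. In the Jmjd1a knockdown Kdm3a fell to 31.9% and 37.8% of the Luc level by its pair of tested probes (adjusted p = 1.90e-08 and 6.08e-08), and in the Jmjd2c knockdown Kdm4c fell to 38.3% (adjusted p = 3.16e-08). Of 8 ES cell markers 7 were above 32 on every array, Pou5f1, Sox2 and Nanog among them. Precision is limited by the 3 arrays of a group, and p-values measure the spread between these cultures only.

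SOX proteins bind DNA through an HMG box, and family members compete for or share sites, often beside a POU partner. Sox1 and Sox3, with Sox2, form the SoxB1 group of activators that keep neural progenitors undifferentiated, whereas Sox21 is a SoxB2 repressor that counteracts SoxB1 proteins in chick neural progenitors and is known in mouse embryos as a target of Sox2 that represses Cdx2. Sox4, Sox11 and Sox12 form the SoxC group, which acts as progenitors become neurons. Sox13 is a SoxD protein, which has no activation domain of its own. In ES cells most neural genes are weakly expressed until LIF is withdrawn.

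The promoters of the 4 genes with a called or described change are shown because their probes moved in one or both knockdowns. Each run is the 250 bases before the RefSeq start in build GRCm38.p6, on the gene's strand, with matches to the searched motifs in capitals. Sox21 lies at chr14:118237031-118237280 (minus strand), Sox11 at chr12:27342719-27342968 (minus), Sox4 at chr13:28953700-28953949 (minus) and Sox13 at chr1:133424213-133424462 (minus).
Sox21: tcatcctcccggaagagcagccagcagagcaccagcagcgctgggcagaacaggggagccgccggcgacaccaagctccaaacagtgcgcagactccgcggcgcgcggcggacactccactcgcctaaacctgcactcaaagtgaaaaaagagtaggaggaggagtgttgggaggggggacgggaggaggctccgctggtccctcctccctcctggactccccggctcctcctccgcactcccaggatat
Sox11: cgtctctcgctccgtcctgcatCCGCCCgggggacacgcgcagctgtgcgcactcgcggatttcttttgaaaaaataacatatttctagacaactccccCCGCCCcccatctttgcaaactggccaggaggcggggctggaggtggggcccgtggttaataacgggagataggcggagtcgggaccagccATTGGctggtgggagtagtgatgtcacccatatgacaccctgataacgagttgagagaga
Sox4: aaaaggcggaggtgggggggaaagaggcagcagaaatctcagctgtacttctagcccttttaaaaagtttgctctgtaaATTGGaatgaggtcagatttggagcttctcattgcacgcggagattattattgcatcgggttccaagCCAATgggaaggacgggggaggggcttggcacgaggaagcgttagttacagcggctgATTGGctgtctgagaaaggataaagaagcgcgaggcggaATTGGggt
Sox13: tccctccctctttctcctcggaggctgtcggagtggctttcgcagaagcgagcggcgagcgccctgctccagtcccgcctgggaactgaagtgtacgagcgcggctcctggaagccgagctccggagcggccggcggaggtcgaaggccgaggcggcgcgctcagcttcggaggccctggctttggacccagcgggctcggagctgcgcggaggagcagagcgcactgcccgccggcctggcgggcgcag
A table of 32851 promoters held an entry for 6 of the 7 members. On both strands the windows were searched for the octamer ATGCAAAT of POU factors, present in 1.60% of all promoters, and for the SOX-type words ACAATG and, separately, ACAAAG, present in 10.7% and 16.5%. Further searches were for CCAAT (33.8%), TATAAA (12.4%) and the GC box GGGCGG (32.7%). The Sox21 and Sox13 windows held no match to any of them. Sox11 held 1 CCAAT match and 2 GC boxes, while Sox4 held 4 CCAAT matches. Sox12, not printed, held 1 octamer, 188 to 195 bases before its start, with 1 CCAAT match and 3 GC boxes, of which 2 overlap, and Sox1 held 1 CCAAT match and 3 GC boxes. All 4 printed windows were richer in CpG than the median promoter, which had 6: there were 17 in Sox21, 17 in Sox11, 11 in Sox4 and 31 in Sox13. GC content was 65.2%, 58.0%, 50.8% and 72.4% in the same order. These matches are descriptions of letters, and no binding was measured.

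Sox21 was lower in the Jmjd1a knockdown and higher in the Jmjd2c knockdown. Its main probe (4670041) read 271.7, 215.5 and 224.3 on the Jmjd1a arrays, against 440.9, 437.9 and 440.6 on Luc replicates 1 to 3. All 3 Jmjd1a arrays lay below all 3 of these Luc arrays. On the Jmjd2c arrays it read 820.3, 835.9 and 827.8, against 394.1, 412.4 and 396.8 on Luc replicates 4 to 6, again with no overlap. The means were 237 ± 30.2 in Jmjd1a and 440 ± 1.65 in Luc replicates 1 to 3, then 828 ± 7.80 in Jmjd2c and 401 ± 9.88 in Luc replicates 4 to 6 (SD, n = 3 each). In log2 terms the Jmjd1a change was -0.90 ± 0.08, a level 53.9% of Luc, and the Jmjd2c change was 1.05 ± 0.08, a level 206% of Luc. These are the values that chose the gene, so they carry no p-value. In such bulk RNA, fewer cells of a type and less RNA per cell cannot be told apart.

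From high to low, Sox21 ran Jmjd2c, Luc replicates 1 to 3, Luc replicates 4 to 6, Jmjd1a. The Luc sets were the closest neighbours in that order: replicates 4 to 6 stood at 91.2% of replicates 1 to 3, a log2 difference of -0.13 ± 0.08, although their arrays did not overlap. That difference was -0.27 after quantile normalization and -0.30 after median scaling. Across the array, all knockdown arrays lay below their Luc arrays for 19.3% of tested probes in Jmjd1a and above them for 26.7% in Jmjd2c, and Luc replicates 4 to 6 all lay below replicates 1 to 3 for 23.9%. The spread of the Jmjd1a arrays was the widest of the 4 groups, with replicate 1 nearest to Luc. Without that replicate the change was -1.0.

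The second Sox21 probe (6660338) was dim. It read 25.1, 12.8 and 17.9 in Jmjd1a, against 22.6, 23.9 and 17.2 in Luc replicates 1 to 3, all below 32. In Jmjd2c it read 54.8, 51.8 and 40.6, against 24.1, 12.2 and 15.7 in Luc replicates 4 to 6. It passed the filter through the Jmjd2c arrays alone, where it was at least 1.52-fold higher than Luc, and so a rise there was the only outcome it could show. It could not show a fall in Jmjd1a because both groups lay under the floor, and it adds no support to the values of the main probe.

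**Figure D1:**
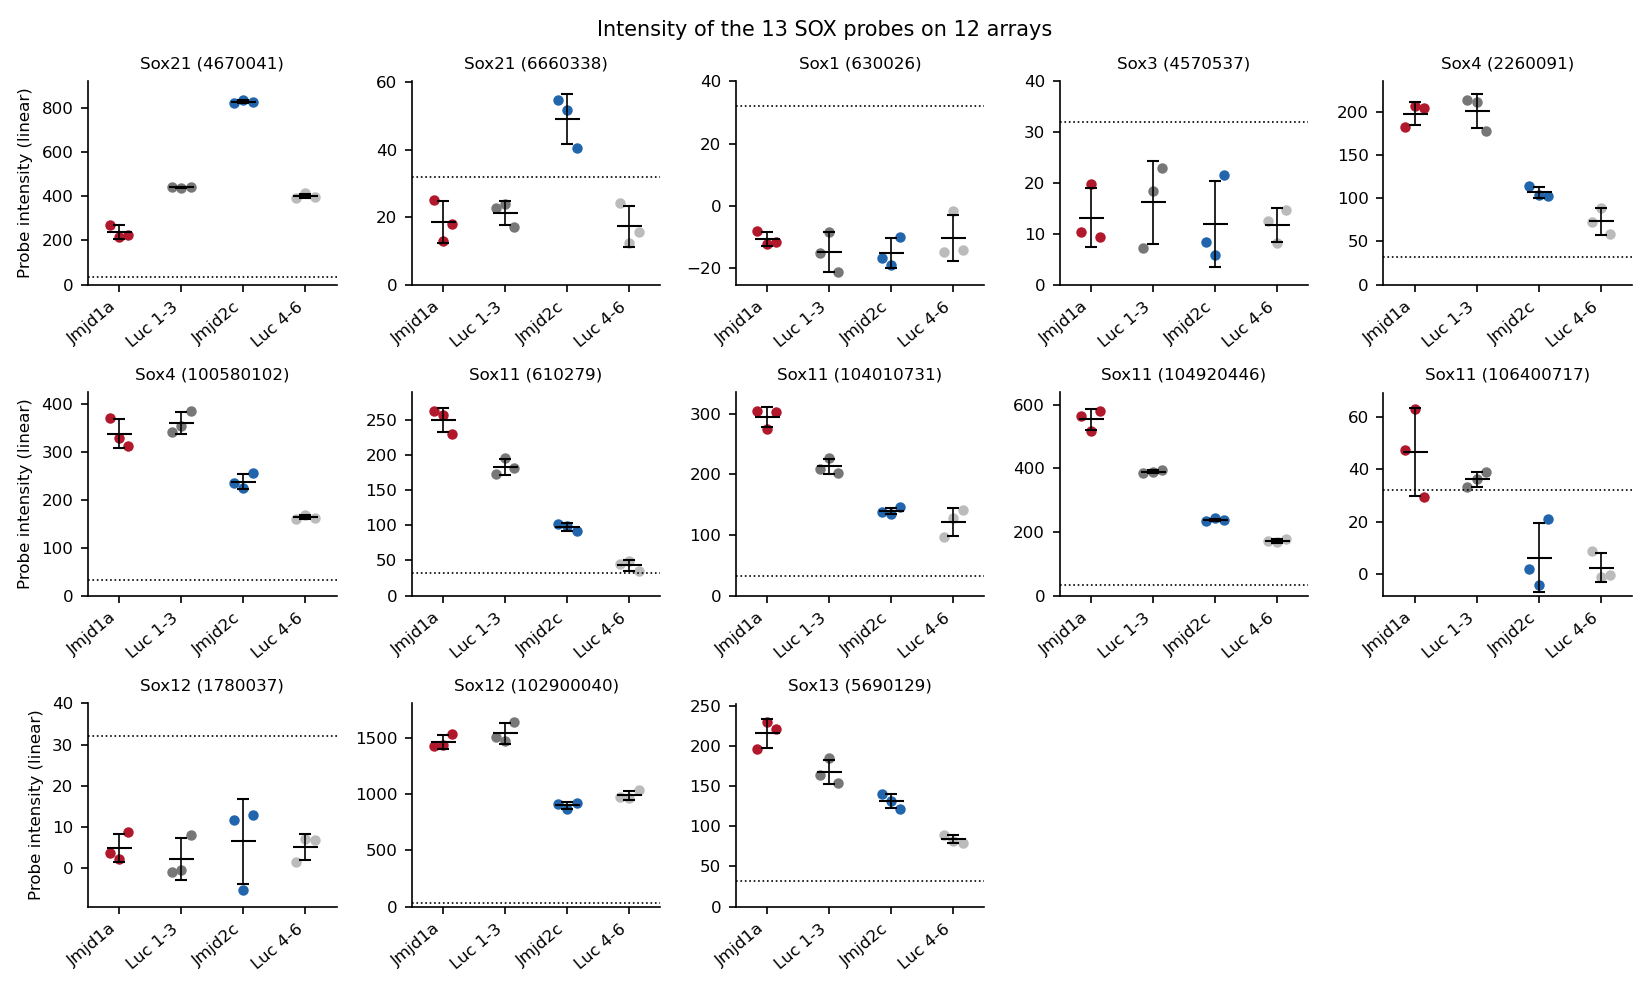
Probe intensity (linear, arbitrary units) of the 13 SOX probes by group; points are arrays, bars are the mean ± SD of 3, and the dotted line is the floor of 32. Sox21 probe 4670041 sits between 215.5 and 271.7 in Jmjd1a and between 820.3 and 835.9 in Jmjd2c, while the probes of Sox1 and Sox3 never reach 32.

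Sox1 and Sox3, the SoxB1 partners of Sox2, were not detected above the floor. The Sox1 probe (630026) ran from -12.3 to -8.1 in Jmjd1a and from -18.8 to -9.8 in Jmjd2c, against -21.2 to -8.2 in Luc replicates 1 to 3 and -14.7 to -1.6 in Luc replicates 4 to 6. For Sox3 (probe 4570537) the ranges were 9.3 to 19.8 in Jmjd1a and 5.8 to 21.6 in Jmjd2c, against 7.1 to 22.9 and 8.1 to 14.6 in the same Luc sets. Neither probe was tested, and a change under the floor could not be seen. The other Sox12 probe (1780037) was as dim, at -5.3 to 13 over all 12 arrays. The background-subtracted values of such probes have no order.

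Sox11, a SoxC factor of young neurons, was higher in both knockdowns. Probe 104920446, with the smallest errors of its 4, read 565.4, 517.1 and 580.4 in Jmjd1a, against 385.0, 387.8 and 395.7 in Luc replicates 1 to 3, and 233.5, 242.2 and 237.4 in Jmjd2c, against 171.2, 166.9 and 178.5 in Luc replicates 4 to 6. Neither pair of groups overlapped. The changes were close in size, 0.51 ± 0.06 in Jmjd1a (1.42-fold, adjusted p = 5.70e-05) and 0.47 ± 0.06 in Jmjd2c (1.38-fold, adjusted p = 6.99e-05), and their difference of 0.04 ± 0.08 did not pass (adjusted p = 0.749). The Jmjd2c arrays were nevertheless dimmer than Luc replicates 1 to 3, since the Luc sets themselves differed.

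The other Sox11 probes were also brighter in Jmjd1a, by the test for 2 of them, and were split on Jmjd2c. Probe 610279 read 263.3, 257.8 and 230.7 in Jmjd1a, against 173.0, 195.8 and 181.9 in Luc replicates 1 to 3, a change of 0.45 ± 0.11 (adjusted p = 0.0126). In Jmjd2c it read 102.6, 98.9 and 91.5, against 44.6, 49.2 and 34.7 in Luc replicates 4 to 6, a change of 1.20 ± 0.11 (2.30-fold, adjusted p = 1.04e-05). By this probe the Jmjd1a change was the smaller, by -0.75 ± 0.16 (adjusted p = 0.00542), but with a floor of 64, above all of its Luc 4 to 6 values, that difference was -0.16 (adjusted p = 0.279). Probe 104010731 read 304.3, 275.2 and 302.1 in Jmjd1a, against 209.2, 227.2 and 201.8 in Luc (0.47 ± 0.12, adjusted p = 0.0121). In Jmjd2c it read 138.0, 134.8 and 145.3, against 95.9, 127.1 and 141.2 in Luc, where the arrays overlapped and the change of 0.22 ± 0.12 did not pass (adjusted p = 0.169). Without Luc replicate 6, the brightest of these, it was 0.34 and passed (adjusted p = 0.0363). The fourth probe, 106400717, stood at 47.3, 63.2 and 29.4 in Jmjd1a, against 33.3, 36.4 and 39.1 in Luc replicates 1 to 3. It was below 32 on all Jmjd2c arrays and on Luc replicates 4 to 6. It passed the filter only through 2 Jmjd1a arrays and 3 Luc arrays, and its Jmjd1a change of 0.34 ± 0.18 did not pass (adjusted p = 0.204). Leaving out Jmjd1a replicate 3, its dimmest, gave 0.60 (adjusted p = 0.00310).

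Sox13, the SoxD member, also rose in both knockdowns. Its probe (5690129) read 196.2, 230.3 and 221.7 in Jmjd1a, against 164.7, 184.7 and 154.1 in Luc replicates 1 to 3. Its Jmjd2c readings were 140.6, 131.7 and 122.3, against 89.6, 82.2 and 79.8 in Luc replicates 4 to 6. Each knockdown lay wholly above its Luc arrays. The changes were 0.37 ± 0.09 in Jmjd1a (1.29-fold, adjusted p = 0.00977) and 0.65 ± 0.09 in Jmjd2c (1.57-fold, adjusted p = 0.000146), and the difference between them, -0.28 ± 0.12, did not pass (adjusted p = 0.123). Fitted on its own 6 arrays alone, the Jmjd1a rise had an adjusted p of 0.0554.

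Sox4, a SoxC factor also active outside the nervous system, was higher in Jmjd2c and not called in Jmjd1a. Probe 100580102 read 370.8, 329.5 and 312.1 in Jmjd1a, against 341.9, 353.6 and 385.3 in Luc replicates 1 to 3, with overlap (-0.10 ± 0.08, adjusted p = 0.427). In Jmjd2c it read 234.0, 223.8 and 256.1, against 160.7, 167.8 and 162.7 in Luc replicates 4 to 6, all higher (0.54 ± 0.08, 1.45-fold, adjusted p = 0.000225). The changes of the knockdowns differed by -0.63 ± 0.11 (adjusted p = 0.00165). Its dimmer probe, 2260091, gave the same calls: 182.9, 207.8 and 204.7 in Jmjd1a overlapped 214.5, 212.4 and 178.9 in Luc (-0.02 ± 0.13, adjusted p = 0.962), while 114.6, 104.5 and 103.1 in Jmjd2c lay above 72.5, 89.0 and 58.5 in Luc (0.57 ± 0.13, adjusted p = 0.00491). For this probe the difference of -0.59 ± 0.19 was near the threshold (adjusted p = 0.0375), and it passed in only 2 of the 12 fits that left out 1 array each.

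Sox12, the third SoxC gene, changed in neither knockdown by the test. Probe 102900040 read 1423.9, 1431.7 and 1532.3 in Jmjd1a, against 1501.9, 1469.9 and 1639.3 in Luc replicates 1 to 3, an overlap, with a change of -0.07 ± 0.06 (adjusted p = 0.464). On the Jmjd2c arrays it read 907.4, 866.5 and 922.8, against 970.2, 962.3 and 1032.8 in Luc replicates 4 to 6. These arrays all lay below Luc, yet the change of -0.14 ± 0.06 did not pass (adjusted p = 0.101), except after quantile normalization (-0.18, adjusted p = 0.0340), with a trended, robust estimate of the spread (adjusted p = 0.0477) or against Luc replicates 1 to 3 (-0.77, adjusted p = 1.25e-06).

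**Figure D2:**
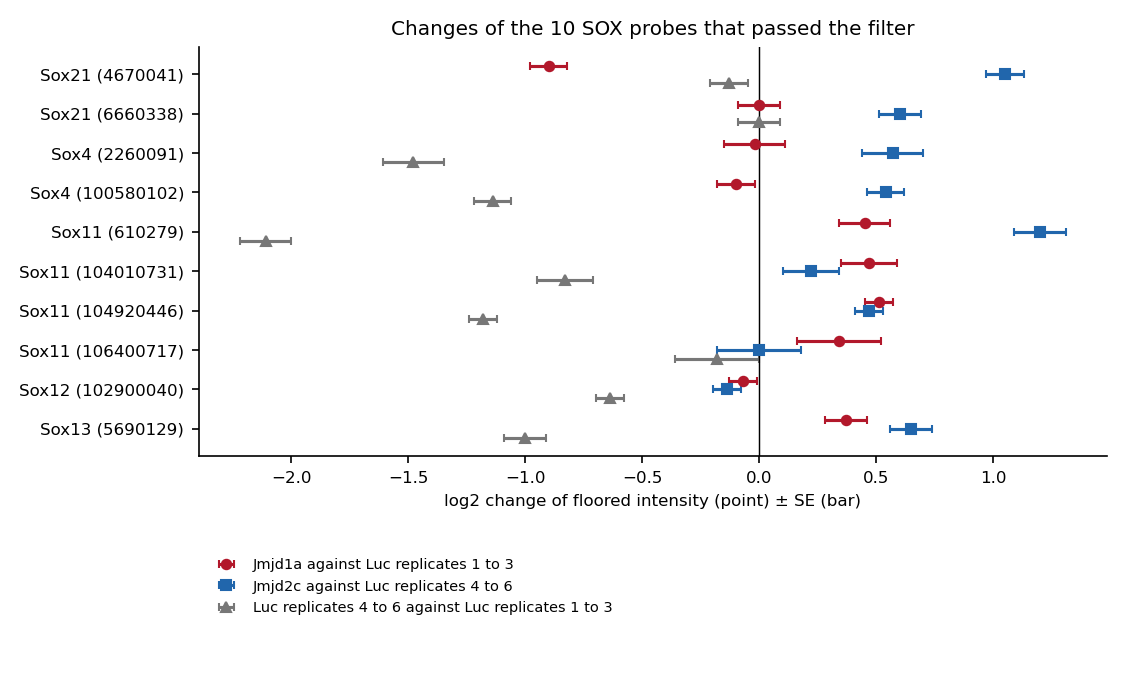
Log2 change (points) ± SE (bars) of the 10 tested SOX probes for Jmjd1a against Luc replicates 1 to 3, Jmjd2c against Luc replicates 4 to 6, and Luc replicates 4 to 6 against 1 to 3. Sox21 probe 4670041 has Jmjd1a at -0.90 and Jmjd2c at 1.05 with the Luc difference at -0.13, whereas Sox11 probe 610279 has its Luc difference at -2.11.

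Over the 8 tested probes of Sox4, Sox11, Sox12 and Sox13, Jmjd1a had 4 called higher and 0 lower, where 13.4% of all tested probes were called higher and 12.1% lower. In Jmjd2c 5 were called higher and 0 lower, beside 20.7% and 18.2% of all tested probes. For the difference of the changes, Jmjd1a minus Jmjd2c, 0 were called higher and 3 lower, beside 12.4% and 11.8%. These contrasts were in view when the members were chosen, so the counts are a description only. By gene, Sox11 and Sox13 were higher in Jmjd1a, and Sox4, Sox11 and Sox13 in Jmjd2c. No member repeated the opposite movement of Sox21: the only one with a called difference by every tested probe, Sox4, changed in Jmjd2c alone.

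For 7 of the 8 probes the Luc sets lay further apart than either knockdown lay from its own Luc arrays. Luc replicates 4 to 6 were lower than replicates 1 to 3 for 7 of the 8 probes and higher for 0, where 20.9% of all tested probes were called lower and 37.1% higher. Sox11 probe 610279 averaged 42.8 ± 7.41 in Luc replicates 4 to 6 and 184 ± 11.5 in replicates 1 to 3, 4.33-fold lower (-2.11 ± 0.11, adjusted p = 3.44e-08). For Sox13 the means were 83.9 ± 5.11 and 168 ± 15.5 in the same sets, 2.00-fold lower (adjusted p = 1.67e-06), and for Sox4 probe 100580102 they were 164 ± 3.66 and 360 ± 22.5 (-1.14 ± 0.08, adjusted p = 2.08e-07). Even Sox12 was lower, at 988 ± 38.6 and 1537 ± 90.0 (-0.64 ± 0.06, adjusted p = 3.42e-06). The same 7 probes stayed called lower under each of the 20 alternatives run for this contrast. The median of all tested probes was 0.10 higher in Luc replicates 4 to 6, and -0.02 after quantile normalization. Of the called probes 64% were higher, against 49% after quantile normalization and 46.6% after median scaling.

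The choice of control arrays decided the direction of several of these changes and not that of Sox21. Against all 6 Luc arrays, the comparison in the series text, Sox21 was -0.83 in Jmjd1a and 0.98 in Jmjd2c, and against the other knockdown's Luc arrays it was -0.77 and 0.91. For Sox11 probe 104920446 the Jmjd1a rise was 1.1 against all 6 (adjusted p = 0.0306), whereas the Jmjd2c change was -0.12 (adjusted p = 0.842), and -0.71 against Luc replicates 1 to 3 (adjusted p = 1.29e-06). Sox13 in Jmjd2c was 0.15 against all 6 (adjusted p = 0.775) and -0.35 against Luc replicates 1 to 3 (adjusted p = 0.00547). The Sox4 probes turned as well, with 100580102 at 0.47 in Jmjd1a (adjusted p = 0.274) and -0.03 in Jmjd2c (adjusted p = 0.964) against all 6 arrays. What separates the Luc sets is not given in the labels, and its part in these changes was not tested.

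**Figure D3:**
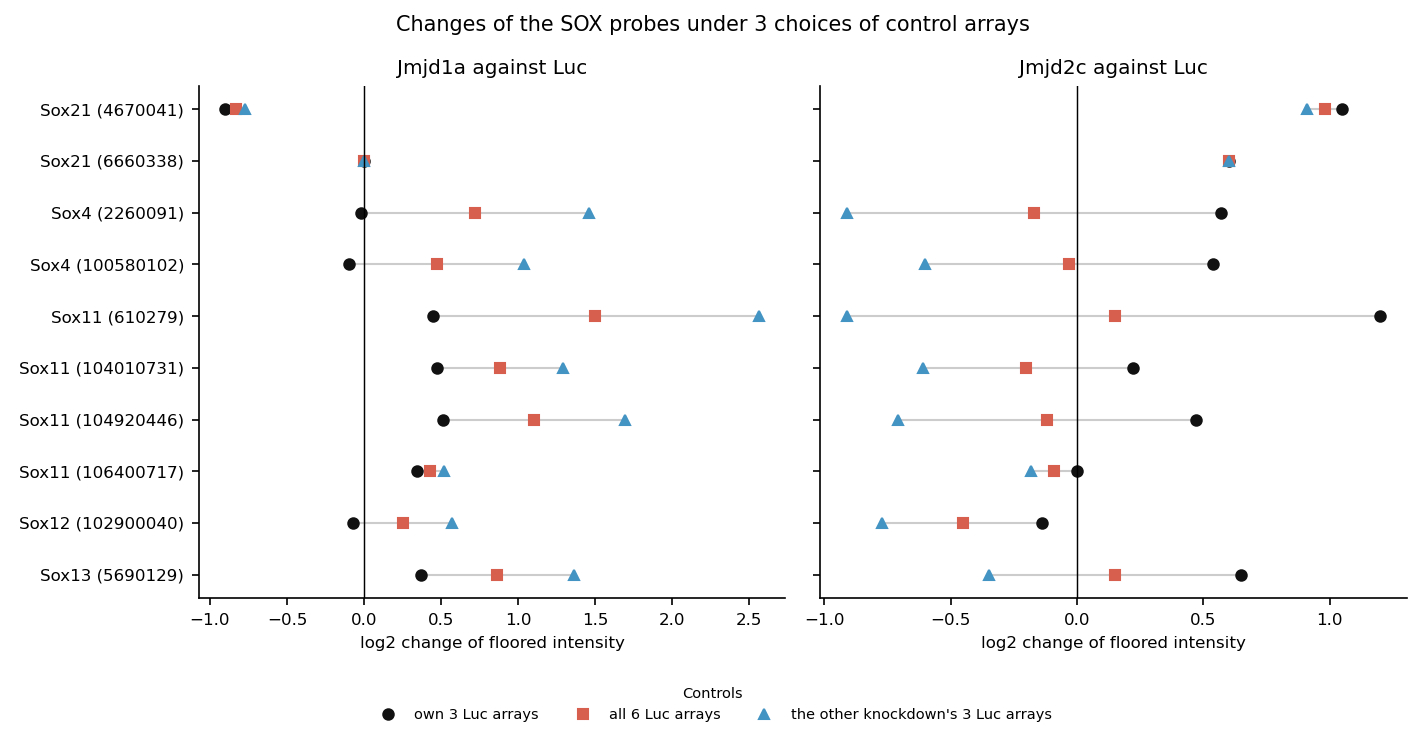
Log2 change of the 10 tested SOX probes in Jmjd1a (left) and Jmjd2c (right) against the knockdown's own 3 Luc arrays (circles), all 6 (squares) or the other knockdown's 3 (triangles). Sox21 probe 4670041 keeps its side of 0 under all 3 choices, at -0.90 to -0.77 and 0.91 to 1.05, while Sox4, Sox11 and Sox13 cross 0 in Jmjd2c.

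Opposite calls in the knockdowns were counted over the whole array. Of 15853 tested probes, 201 were called lower in Jmjd1a and higher in Jmjd2c, 236 the reverse, 910 higher in both and 835 lower in both. At or beyond the Sox21 change on both sides were 11 other probes of 10 genes: Dab2, Cubn, Col4a1, Gata6, Col4a2, Pdgfra, Klb, Srgn, Foxq1 and Ccnd2, named after their values were seen. Gata6, a master regulator of primitive endoderm, had -1.24 in Jmjd1a and 2.11 in Jmjd2c, and Cubn, an endocytic receptor of visceral endoderm, had -1.79 and 2.84. The collagen IV chains Col4a1 (-1.12 and 1.36) and Col4a2 (-1.14 and 1.61), of basement membranes, moved likewise. Some of these directions depended on the controls. By the means of the other knockdown's Luc arrays, Ccnd2 turned in Jmjd1a (380 against 110) and in Jmjd2c (298 against 870). Cubn (63.9 against 49.6) and Dab2 (424 against 241) were then higher in Jmjd1a. In Jmjd2c Dab2 (983) was then close to Luc (952). The other genes kept both directions by their means.

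Likeness to Sox21 was measured as Pearson's r over the 12 arrays of log2 intensity after subtracting the mean of each set's own 3 Luc arrays, for 1 probe per gene. The highest were Srgn, a proteoglycan core protein, at 0.995, the cyclins Ccnd2 at 0.992 and Ccnd1 at 0.991, Cubn at 0.991, Col4a1 at 0.991 and Col4a2 at 0.988. Lowest were Dusp1, a phosphatase that acts on MAP kinases, at -0.991, Armcx2 at -0.990 and Lefty1, a Nodal antagonist, at -0.987. These values describe 12 points in which arrays of a group share their treatment, and are given without a test. Without the subtraction, Col4a1 (0.986) and Col4a2 (0.982) led, followed by Ramp2 (0.981) and Gata6 (0.977), whereas Ccnd2 was at -0.039 and Ccnd1 at -0.371, as their Luc sets lay -2.98 and -1.84 apart, replicates 4 to 6 being lower. Dusp1 was then at -0.171, and the lowest were Wwc1 (-0.969) and Elovl6 (-0.962). Among the other SOX members r after the subtraction was 0.73 and 0.89 for the Sox4 probes, 0.37 for Sox13, -0.36 for Sox12 and -0.46 to 0.57 for Sox11. Without it every one of these probes was negative, at -0.42 and -0.29 for Sox4, -0.42 for Sox13, -0.68 for Sox12 and -0.65 to -0.40 for Sox11, so the likeness of Sox4 to Sox21 depends on the subtraction.

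**Figure D4:**
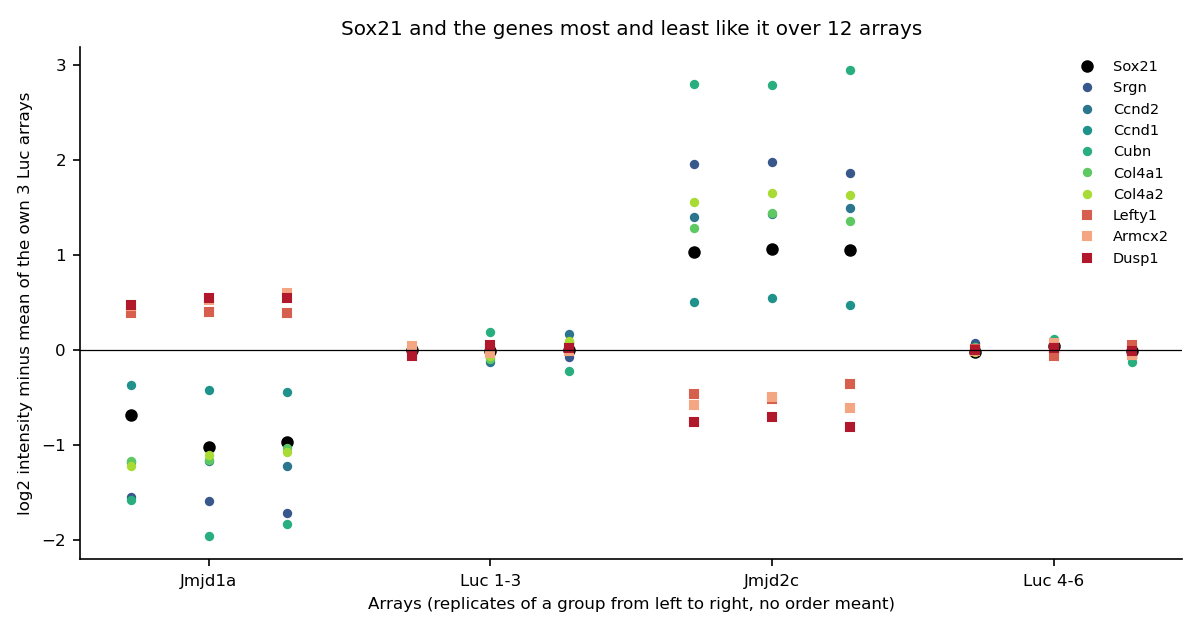
Log2 intensity minus the mean of the set's own 3 Luc arrays, for Sox21 (black) and the 6 genes with the highest (circles) and 3 with the lowest r (squares); each point is an array, with replicates side by side in no order. Srgn, Cubn, Col4a1 and Col4a2 move further than Sox21 in both knockdowns, and Ccnd1 less far (-0.41 in Jmjd1a and 0.50 in Jmjd2c).

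Markers of primitive endoderm, a cell type that ES cultures can form, moved with Sox21. The summed intensity of 10 markers was 871 to 1002 on the Jmjd1a arrays, against 1943 to 1994 on Luc replicates 1 to 3, and 3189 to 3456 on the Jmjd2c arrays, against 1062 to 1096 on Luc replicates 4 to 6. No group overlapped its Luc arrays. Of the 7 tested, 4 fell and 0 rose in Jmjd1a, where 13.6% of all tested genes were called lower and 14.5% higher, and 6 rose and 0 fell in Jmjd2c, beside 22.7% higher and 19.7% lower. Lama1, counted among the 6, was above 32 on the Jmjd2c arrays alone. It passed the filter through them, so a rise there was the only outcome it could show. Gata4 was called in neither (-0.09 and 0.04), while Sox7 and Afp never exceeded 4.0 and 9.1. Neural progenitor markers summed to 224 to 232 in Jmjd1a, against 246 to 286 in Luc, and to 305 to 355 in Jmjd2c, against 174 to 188 in Luc. The Jmjd1a direction depended on the controls, as its sums lay above those of Luc replicates 4 to 6. Of 7 with a probe only Pax6 and Nes were tested, and the other 5 peaked between -8.9 (Fabp7) and 33.6 (Zic1). Summed trophectoderm markers were 881 to 915 in Jmjd1a, against 520 to 533 in Luc, and 1386 to 1409 in Jmjd2c, against 565 to 674 in Luc, with the keratin Krt8 brightest on average in each group. Of 8 markers 5 were tested, and 4 rose and 0 fell in each knockdown. Tfap2a did not pass in Jmjd1a (0.13, adjusted p = 0.328), nor Eomes in Jmjd2c (-0.06, adjusted p = 0.734), and Elf5, Hand1 and Ascl2 were below 32 on every array.

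Summed ES cell markers were lower in both knockdowns. They summed to 18535 to 18800 in Jmjd1a, against 24176 to 25735 in Luc replicates 1 to 3, and to 23237 to 23753 in Jmjd2c, against 25798 to 26967 in Luc replicates 4 to 6, without overlap in either. Of 7 tested, 4 fell and 0 rose in Jmjd1a: Esrrb (-0.83), Klf4 (-0.71), Zfp42 (-0.45) and Nanog (-0.29). Of all tested genes, 13.6% were called lower there and 14.5% higher. In Jmjd2c 2 fell and 0 rose, Nanog (-0.40) and Sox2 (-0.18), beside 19.7% of all tested genes called lower and 22.7% higher. The Jmjd2c falls were near that share. The part of any of these cell types in the Sox21 values was not tested.

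Among 13 other SOX genes 4 were tested. Sox2, the SoxB1 factor of ES cells, read 2219.2, 2267.0 and 2061.5 in Jmjd1a, against 2347.1, 2551.1 and 2422.6 in Luc replicates 1 to 3, a change of -0.16 ± 0.06 that did not pass (adjusted p = 0.0725). It fell by 0.18 in Jmjd2c (adjusted p = 0.0312), with 2138.5, 2159.1 and 2283.6, against 2580.2, 2498.4 and 2391.1 in Luc replicates 4 to 6. Sox2 was within 1.13-fold of Luc in each knockdown. Sox17, an endoderm factor, averaged 148 ± 12.2 in Jmjd2c and 7.17 ± 13.8 in Luc replicates 4 to 6, at least 4.61-fold higher (adjusted p = 5.72e-08). In Jmjd1a it was below 32 on all arrays, against 30.6, 44.6 and 42.3 in Luc, and the difference did not pass (adjusted p = 0.0642). Sox15 fell in Jmjd2c (-0.50 ± 0.12, adjusted p = 0.00697), although its mean there, 107, lay above the 71.4 of Luc replicates 1 to 3. Sox6 was called in neither knockdown. The 9 untested genes peaked at 2.0 to 26.7.

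Against each knockdown's own Luc arrays, neural progenitor genes were split in Jmjd1a and leaned higher in Jmjd2c. Of 30 listed, 28 had a probe and 14 were tested: 5 rose and 6 fell in Jmjd1a, with a median of -0.10, beside 0.00 for all tested genes, 14.5% of which were called higher and 13.6% lower. In Jmjd2c 7 rose and 1 fell, with a median of 0.34, beside 0.02 for all genes and calls of 22.7% higher and 19.7% lower. The Jmjd2c calls depended on the controls, as 3 of these genes were called against all 6 Luc arrays. The list was itself lower in Luc replicates 4 to 6 than in replicates 1 to 3, with a median of -0.43, beside 0.11 for all genes. En2, for example, averaged 205 in Jmjd2c, below the 322 of Luc replicates 1 to 3. Pax6, a factor of neural and eye progenitors, moved as Sox21 did: it read 102.4, 99.4 and 107.3 in Jmjd1a, against 214.6, 193.7 and 236.3 in Luc replicates 1 to 3 (-1.06 ± 0.09, adjusted p = 5.01e-06), and 260.8, 243.2 and 229.0 in Jmjd2c, against 132.9, 141.0 and 119.2 in Luc replicates 4 to 6 (0.90 ± 0.09, adjusted p = 1.22e-05). Its changes differed by -1.96 (adjusted p = 1.19e-06). Sall1, a zinc finger factor, fell in Jmjd1a (-0.62) and rose in Jmjd2c (0.29), as did Gbx2, a hindbrain-border factor also used in naive ES cells (-0.33 and 1.43). For Gbx2 both directions depended on the controls, as its Luc means were 4318 in replicates 1 to 3 and 1062 in replicates 4 to 6. Against the other knockdown's Luc arrays, Jmjd1a (3426) was higher and Jmjd2c (2866) lower. The Wnt modulator Sfrp2 went the other way (0.52 and -0.45).

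Other progenitor genes rose in both knockdowns. Meis2, a TALE homeodomain factor, averaged 275 ± 2.18 in Jmjd1a and 143 ± 3.58 in Luc replicates 1 to 3 (0.95 ± 0.07, adjusted p = 1.86e-06), and 162 ± 15.8 in Jmjd2c and 69.8 ± 2.55 in Luc replicates 4 to 6 (1.21 ± 0.07, adjusted p = 1.99e-07). Its relative Meis1 rose by 0.31 in Jmjd1a (adjusted p = 0.0295) and was at least 2.72-fold higher in Jmjd2c. En1, a midbrain-hindbrain factor, rose by 0.56 in Jmjd1a and was at least 2.35-fold higher in Jmjd2c. The Jmjd2c mean of En1, 75.5, nevertheless lay below the 186 of Luc replicates 1 to 3. Nes, the intermediate filament of neural stem cells, was above 32 only in Jmjd1a, at 47.4, 67.1 and 48.3, at least 1.67-fold higher than Luc. It passed the filter through those arrays alone, so a rise in Jmjd1a was the only outcome it could show. It is among the progenitor genes counted above as rising in Jmjd1a, and adds no support to that count. Ncam1, a cell adhesion molecule, fell in Jmjd1a (-0.97 ± 0.08, adjusted p = 4.14e-06).

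Proneural and neuronal genes, among them those that SoxC proteins act beside, were called in both directions. Of 21 listed, 13 were tested: 2 rose and 5 fell in Jmjd1a (median -0.23), beside 14.5% of all tested genes called higher and 13.6% lower, and 4 rose and 3 fell in Jmjd2c (median 0.04), beside 22.7% and 19.7%. The rises in Jmjd1a and the falls in Jmjd2c were near those shares. Tubb3, the neuronal tubulin known as a SoxC target, averaged 63.5 ± 7.32 in Jmjd1a and 82.8 ± 3.58 in Luc replicates 1 to 3 (-0.39 ± 0.10, adjusted p = 0.0140), and was not called in Jmjd2c (0.07, adjusted p = 0.643). Tead2, another gene linked to SoxC proteins, fell in both (-0.35 in Jmjd1a and -0.50 in Jmjd2c). The growth cone gene Gap43 rose in both, by 0.35 in Jmjd1a and 1.77 in Jmjd2c (adjusted p = 0.00478 and 2.31e-08), and the proneural factor Neurod1 fell in Jmjd1a (-0.34) and rose in Jmjd2c (0.60). Insm1 rose in Jmjd1a (0.45), where Dpysl3 (-0.71) and Stmn3 (-0.65) fell. In Jmjd2c the neurofilament-like gene Ina rose (0.92), and Elavl3 (-0.54) and Stmn2 (-0.38) fell. Some of these directions turned against the means of the other knockdown's Luc arrays. In Jmjd2c, Gap43 (304 against 635) and Ina (231 against 292) were then lower and Elavl3 (67.2 against 59.2) higher. In Jmjd1a, Neurod1 (246 against 218), Dpysl3 (53.6 against 25.9) and Stmn3 (42.8 against 41.5) were then higher.

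Of POU partners of SOX proteins only Pou5f1 and Pou3f1 were tested among 6 with a probe. Pou5f1, the partner of Sox2 in ES cells, was called in neither knockdown (-0.04 in Jmjd1a and 0.03 in Jmjd2c). Pou3f1, a partner in epiblast and early neural cells, read 679.4, 626.0 and 720.1 in Jmjd1a, against 340.1, 367.2 and 400.1 in Luc replicates 1 to 3 (0.87 ± 0.09, adjusted p = 3.67e-05), and 142.6, 162.2 and 147.2 in Jmjd2c, against 60.7, 49.4 and 56.0 in Luc replicates 4 to 6 (1.45 ± 0.09, adjusted p = 5.47e-07). Like Sox11, it was higher in both knockdowns and lower in Luc replicates 4 to 6 than in 1 to 3 (-2.74, adjusted p = 1.23e-09). Its Jmjd2c arrays were dimmer than Luc replicates 1 to 3.

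Of 22 regulators of entry into the neural lineage 16 were tested, of which 7 rose and 4 fell in Jmjd1a (median 0.16) and 6 rose and 4 fell in Jmjd2c (median 0.15). Of all tested genes, 14.5% were called higher and 13.6% lower in Jmjd1a, and 22.7% and 19.7% in Jmjd2c. Id1, Id2 and Id3, inhibitors of proneural factors downstream of BMP, rose in both, by 0.57, 0.62 and 0.62 in Jmjd1a and by 1.30, 1.38 and 1.25 in Jmjd2c. The Jmjd2c rises depended on the controls. Jmjd2c means were 453, 218 and 243, below the 499, 302 and 296 of Luc replicates 1 to 3. Bmp4 itself fell in Jmjd1a (-1.01 ± 0.08, adjusted p = 2.69e-06) and was slightly higher in Jmjd2c (0.21, adjusted p = 0.0461). Its Jmjd2c mean of 237 lay below the 297 of Luc replicates 1 to 3. Fst, which binds activin, rose by 1.53 in Jmjd1a and 0.89 in Jmjd2c. Fgf5, an epiblast ligand, read 142.4, 147.5 and 143.5 in Jmjd1a, against 36.7, 28.5 and 35.3 in Luc (2.06 ± 0.06, adjusted p = 3.00e-09), and was below 32 in Jmjd2c and its Luc arrays. Sfrp1 (-0.72 in Jmjd1a and -0.78 in Jmjd2c) and Fgf4 (-0.70 and -0.72) fell in both, and the Notch effector Hes1 fell in Jmjd2c alone by the test (-0.37, and the difference, 0.36, had an adjusted p of 0.0178). The Jmjd2c mean of Hes1, 271, lay above the 161 of Luc replicates 1 to 3.

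Cdx2 is the trophectoderm gene that Sox21 is known to repress in the mouse embryo. It was higher in each knockdown than in its own Luc arrays, although Sox21 moved in opposite directions. It read 160.9, 165.7 and 161.6 in Jmjd1a, against 67.6, 73.6 and 70.4 in Luc replicates 1 to 3 (1.21 ± 0.07, 2.31-fold, adjusted p = 2.94e-07). The Jmjd2c arrays read 61.3, 70.4 and 61.8, against 16.7, 34.8 and 9.4 in Luc replicates 4 to 6, of which 1 was above the floor (0.97 ± 0.07, adjusted p = 1.01e-06). The Jmjd2c change is reduced by the floor, since the means were 64.5 ± 5.12 in Jmjd2c and 20.3 ± 13.1 in Luc replicates 4 to 6, and it is not compared in size with the Jmjd1a change. The Jmjd2c rise also depended on the choice of controls. Cdx2 was lower in Luc replicates 4 to 6 than in replicates 1 to 3 (-1.10, adjusted p = 8.62e-08). Its mean in replicates 1 to 3 was 70.5, above that of Jmjd2c.

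**Figure D5:**
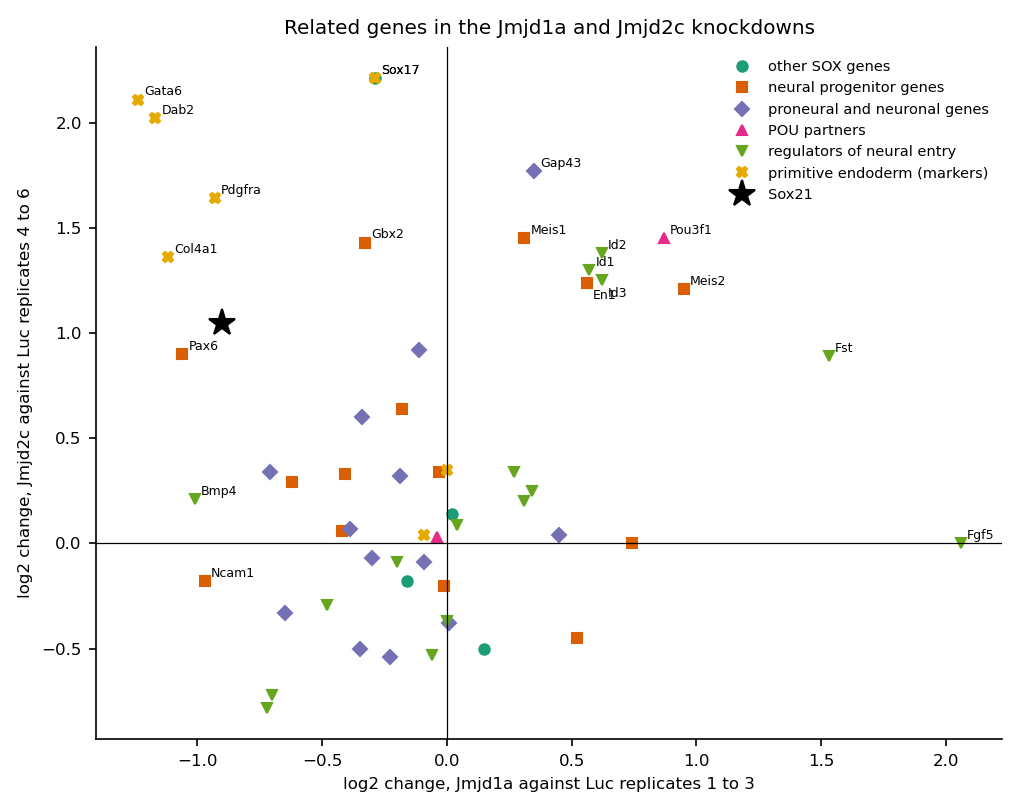
Log2 change of related genes in Jmjd1a against Luc replicates 1 to 3 (x axis) and in Jmjd2c against Luc replicates 4 to 6 (y axis), 1 point per tested gene, coloured by list; genes with large changes are named. Sox21 (star, at -0.90 and 1.05) lies in the upper left with Pax6 and the primitive endoderm markers Gata6, Dab2, Pdgfra and Col4a1, apart from Id1, Id2, Id3, Meis2 and Pou3f1 in the upper right.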

How the data were processed

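Total RNA (500 ng per sample, per the labels) was profiled on one-colour bead arrays. The deposited values are probe intensity values on a linear scale. Between 35.0% and 36.8% of them per array lie below 0, so a background had been subtracted by the authors, and the method and any scaling are not given in the sources used here. They were used as deposited, with values under 32 set to 32, on the log2 scale. Symbols came from the platform annotation (29542 probes with 1 symbol, 11 with several, 16580 with none), checked against RefSeq genes of GRCm38.p6, with 0 updated. The 15853 probes above 32 on at least 3 arrays were fitted with limma 3.58.1 in R 4.3.3 (lmFit and eBayes, 4 groups, 8 residual degrees of freedom), and two-sided p-values were adjusted by Benjamini-Hochberg over all of them. An exact permutation test of 3 against 3 arrays cannot go below 0.1. The script was tested on simulated data. Fold changes against arrays all at the floor are lower bounds. Figures and sequence counts used Python 3.11.15.

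The members and gene lists were chosen with earlier results of these data known. Named are every member probe, tested SOX genes, and from each list the 3 largest called rises and falls in each knockdown plus genes with a role beside a SOX member. Lists use 1 probe per gene, the brightest on average. No 2 arrays of a group shared more than 211 identical probe values. Alternatives covered the control arrays, scaling, floors of 16 and 64, the filter, the estimate of spread, the replicate block and leaving out each array. Protein sequences were not used here.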

Additional observations from a re-analysis of the deposited data

Results flagged for a closer look

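In 4 member probes the change in Jmjd1a differed from that in Jmjd2c. For Sox21 (probe 4670041) every Jmjd1a array lay below its Luc arrays and every Jmjd2c array above its own, with a difference of changes of -1.94, which was not tested because these values chose the gene. For the others the difference itself passed the limma test: -0.59 for Sox4 probe 2260091 (adjusted p = 0.0375), -0.63 for Sox4 probe 100580102 (adjusted p = 0.00165) and -0.75 for Sox11 probe 610279 (adjusted p = 0.00542). In Sox4 this is a rise in Jmjd2c beside no called change in Jmjd1a, and in Sox11 a larger rise in Jmjd2c, by 1 of its 4 probes. A check over the 6 Luc arrays singled out no array in any of 10 tested member probes. The Luc sets differ for most of these probes, so this check could hardly single out 1 array and does not show that the Luc arrays are alike.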

How the results depend on the processing

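Sox21 kept its sign in both knockdowns under every alternative. Against the other knockdown's Luc arrays the main probe was -0.77 in Jmjd1a and 0.91 in Jmjd2c. Leaving out 1 array in turn gave -1.0 to -0.83 and 1.03 to 1.07. These values chose the gene and no knockdown array overlapped Luc, so leaving out 1 array could not turn the sign. Control choice moved most of the rest. Called probes in Jmjd1a numbered 4040, against 10091 with the other Luc arrays (3871 higher, 6220 lower), and in Jmjd2c 6176, against 1896 with all 6 (1379 higher, 517 lower). Called list genes in Jmjd2c numbered 29, against 8 with all 6. Against all 6 and then the other Luc arrays, Sox4 probe 2260091 was 0.72 and 1.46 in Jmjd1a and -0.17 and -0.91 in Jmjd2c, and probe 100580102 was 0.47 and 1.04, then -0.03 and -0.60. Sox12 was 0.25 and 0.57 in Jmjd1a and -0.45 and -0.77 in Jmjd2c. In Jmjd2c, Sox11 probe 104010731 was -0.20 and -0.61, and 104920446 was -0.12 and -0.71. Against the other Luc arrays alone, Sox11 probe 610279 (-0.91) and Sox13 (-0.35) turned in Jmjd2c. Against all 6, Sox11 probe 610279 was not called in Jmjd1a (1.5, adjusted p = 0.0792) or Jmjd2c (0.15, adjusted p = 0.896). The cause was not tested. Sox4 probe 2260091 in Jmjd1a ranged from -0.11 to 0.04 when 1 array was left out, and the Sox11 104920446 difference was 0.00 after quantile normalization. The Sox4 2260091 difference lost its call with floors of 16 (adjusted p = 0.0522) and 64 (adjusted p = 0.0561) and without any but 2 arrays, within 0.00648 to 0.0850 over its alternatives. Leave-one-out counts were 3264 to 4090 in Jmjd1a, 5373 to 6213 in Jmjd2c, 8559 to 9310 between Luc sets and 3296 to 3577 for the difference.

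Without the filter, the 17742 probes above 32 on at least 1 array were tested. Numbers 1 to 3 are shared by Jmjd1a and Luc, but same-numbered arrays deviated with r = 0, 0.01 and 0.11, so they are not pairs. With the replicate block, 3887 probes were called in Jmjd1a, 5981 in Jmjd2c, 9101 between the Luc sets and 3667 for the difference, Sox21 was -0.90 and 1.05, and the Sox4 2260091 difference was lost (adjusted p = 0.0590). Dim probes are limited by the floor.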
